A study of Drosophila melanogaster with 7 samples.

Results

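Egfr, rho, kek1 and aop are 4 genes of the epidermal growth factor receptor (EGFR) pathway, picked here out of the 7608 gene IDs of the expression table. They code for the receptor, for a protease that activates its ligands and for a pair of inhibitors. They were chosen by name, with the values they show between Sox21a-/- and wild type cells already known, so those differences are given as a description and carry no test. RNA was sequenced from Esg-GFP+ cells of the adult Drosophila melanogaster midgut at day 10, in 3 libraries from Sox21a-/- flies and 4 libraries from wild type flies. Sox21a is a Sox family transcription factor of intestinal progenitors, and the mutant flies carried the knockout in the whole animal. Both groups carried the Esg-GFP reporter, which marks progenitors, the intestinal stem cells and enteroblasts, and by which the cells were sorted. Each library pooled cells from many guts, so fewer cells of a type and less RNA per cell cannot be told apart.

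In flies, EGFR ligands such as Spitz are made as membrane-bound precursors, and Rhomboid proteases cut them so that they can be secreted. A bound receptor activates Ras and the kinase cascade that ends in ERK, and ERK acts in the nucleus through ETS factors: Pointed activates target genes, and Anterior open (aop, also called Yan) represses them until ERK phosphorylates it. Kekkon 1 (kek1) is a transmembrane protein that binds the receptor and inhibits it, and in the fly ovary its gene is itself switched on by the pathway. In the midgut, EGFR signalling is known for driving the growth and division of intestinal stem cells.

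Levels are given in FPKM, sequenced fragments scaled by transcript length and by the number of mapped reads, which allows genes of unequal length to be set side by side. An exact 0 in these files may be a failed estimate: 25.7% of all values were 0, spread over 4924 genes. A gene with any such 0 is therefore given by library. The reads per library, worked out from the size of the smallest step between low values, came to about 8237232 to 10288066, with the higher depth in Sox21a-/- replicate 2 and in wild type replicates 1 and 2. Sox21a itself was at 96.3, 50.6 and 0 FPKM in the Sox21a-/- libraries, against 0, 0, 230.4 and 232.9 FPKM in the wild type libraries. Its values above 0 were lower in the mutant libraries (log2 difference -1.72 with zeros as missing, limma adjusted p = 0.0347). The wild type values above 0 came only from replicates 3 and 4, which may share a source. With zeros in each group, Sox21a is only a partial check of the labels (0.17 with zeros kept, limma adjusted p = 0.977). The progenitor gene esg was not analysed here.

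The receptor gene Egfr codes for the only EGF receptor of the fly. It lies on chromosome 2R, at 21522420 to 21559977 on the plus strand of the BDGP6 assembly, with 2 annotated transcripts and 6947 exonic bases. Egfr had 21.2, 16.6 and 0 FPKM in the Sox21a-/- libraries, against 37.6, 21.0, 31.0 and 28.1 FPKM in the wild type libraries. Leaving aside the 0 in Sox21a-/- replicate 3, the mutant values lay at the lower end, but the groups overlapped: Sox21a-/- replicate 1 was just above wild type replicate 2. With counting error only, as 95% Poisson intervals, Sox21a-/- replicate 1 spanned 20.1 to 22.5 FPKM and wild type replicate 2 spanned 19.9 to 22.1 FPKM. About 1215 and 1184 reads stood behind the values of Sox21a-/- replicates 1 and 2. In the library pairs, a Sox21a-/- value was above a wild type value in 1 of 8 comparisons between libraries above 0.

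The size of the Egfr difference turned on the single 0. On the log2(FPKM + 1) scale, as Sox21a-/- minus wild type, it was -2.03 (SE 1.12) with the 0 kept. It was -0.59 with the 0 treated as missing (SE 0.24) or with that library left out (SE 0.28). Whether the 0 stands for missing RNA or a missing estimate was not tested, and kek1, rho and aop all had a value in that library.

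The ligand-activating protease gene rho codes for Rhomboid, which cuts Spitz within its membrane span. It lies on chromosome 3L, at 1463811 to 1468944 on the plus strand, with 2 transcripts and 3000 exonic bases. Levels of rho were 16.8, 8.83 and 13.3 FPKM in the Sox21a-/- libraries, against 7.04, 12.2, 6.38 and 5.89 FPKM in the wild type libraries. The groups overlapped, since wild type replicate 2 was above Sox21a-/- replicate 2. The means were 13.0 ± 4.01 FPKM (SD, n = 3) in Sox21a-/- cells and 7.88 ± 2.93 FPKM (SD, n = 4) in wild type cells. A Sox21a-/- library was above a wild type library in 11 of 12 pairs, and the log2 difference was 0.66 (SE 0.36). Over values above 0, rho had the widest spread within groups of the 4 genes, with a coefficient of variation of 30.8% in Sox21a-/- and 37.2% in wild type libraries. The median over the 2460 tested genes that were never at 0 was 19.8% in Sox21a-/- and 20.8% in wild type libraries. In the libraries of lower depth every mutant value of rho was above every wild type value, in 4 of 4 pairs, and in those of higher depth it was so in 1 of 2 pairs.

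The feedback inhibitor gene kek1 codes for a receptor-binding protein with leucine-rich repeats and an immunoglobulin domain. It lies on chromosome 2L, at 12817000 to 12822787 on the minus strand, and its 2 transcripts merge into 1 exonic block of 5788 bases. In the Sox21a-/- libraries kek1 had 7.41, 9.36 and 10.9 FPKM, against 1.53, 2.25, 2.38 and 2.09 FPKM in the wild type libraries. The groups did not overlap, and even the nearest pair, Sox21a-/- replicate 1 over wild type replicate 3, differed 3.12-fold. Mean levels were 9.23 ± 1.75 FPKM in Sox21a-/- cells (SD, n = 3) and 2.06 ± 0.375 FPKM in wild type cells (SD, n = 4), a ratio of 4.48. The log2 difference of 1.73 (SE 0.28) was the largest of the positive differences among the 4 genes, and it was 1.62 to 1.87 when any 1 library was left out.

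About 353 to 562 reads fell on it in the Sox21a-/- libraries, against 91 to 133 reads in the wild type libraries. The 95% Poisson interval was 6.66 to 8.23 FPKM for the lowest mutant value and 1.96 to 2.85 FPKM for the highest wild type value. Among the genes above 0 in the same library, kek1 stood at the 46.2 to 54.7 percentile in Sox21a-/- libraries and at the 15.8 to 23.7 percentile in wild type libraries. Scaling the libraries by the median ratio of their genes left the log2 difference at 1.73. Within libraries of like depth, each mutant value was above each wild type value, in 2 of 2 pairs at the higher depth and 4 of 4 pairs at the lower.

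The repressor gene aop codes for an ETS factor that opposes Pointed. It lies on chromosome 2L, at 2156484 to 2178754 on the minus strand, with 5 transcripts and 5454 exonic bases. Of these, 307 bases, or 5.63%, are shared with CG15382 on the opposite strand, which was not analysed here, and the counting is not stated to use strand. Levels of aop were 21.2, 27.6 and 30.0 FPKM in the Sox21a-/- libraries, against 17.6, 18.2, 17.8 and 16.5 FPKM in the wild type libraries. The groups did not overlap, although the lowest mutant value was only 1.16-fold above the highest wild type value. Their 95% Poisson intervals, 19.9 to 22.6 FPKM and 17.1 to 19.4 FPKM, were separate. The means were 26.3 ± 4.54 FPKM (SD, n = 3) in Sox21a-/- cells and 17.6 ± 0.717 FPKM (SD, n = 4) in wild type cells. The pairs ran up to 1.81-fold, less than the nearest pair of kek1, and the log2 difference was 0.54 (SE 0.18). The wild type values of aop were close to one another, with a coefficient of variation of 4.08%, against 17.3% in the mutant libraries. As with kek1, the mutant values were higher in all 12 library pairs and within both depth levels.

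**Figure D1:**
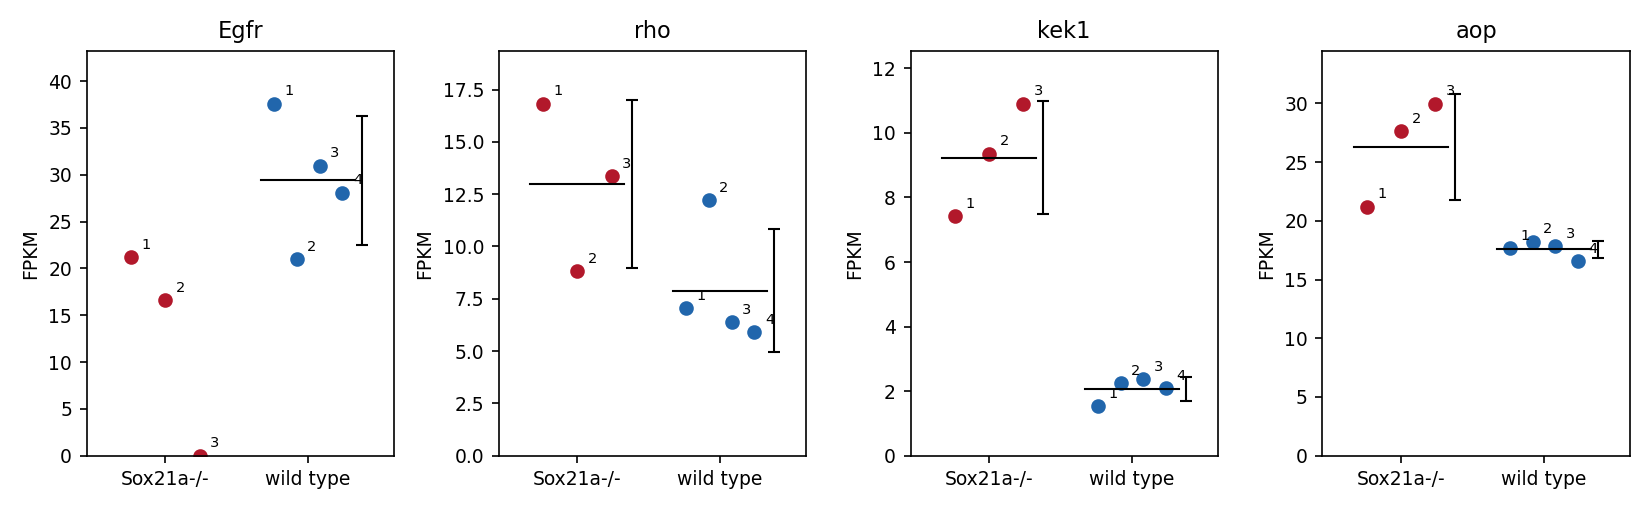
FPKM of Egfr, rho, kek1 and aop in each library (numbered points), with Sox21a-/- in red (3 libraries) and wild type in blue (4 libraries). Lines are means and bars 1 SD, drawn where no library is at 0. The kek1 and aop groups do not overlap, rho overlaps through replicate 2 of each group, and Egfr is listed at 0 in Sox21a-/- replicate 3.

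For background, limma with Benjamini-Hochberg adjustment called 1.39% of the 6565 genes tested higher in Sox21a-/- cells and 1.05% lower at an adjusted p of at most 0.05. Of the 4 genes, 1 was called higher (kek1) and 0 lower. With the study's criteria, P of at most 0.05 and a fold of at least 2, the shares of all genes were 6.67% higher and 4.02% lower, and of the 4 genes kek1 was again the 1 called. With the genes at 0 in no library fitted alone, 9.23% were called higher and 7.97% lower by adjusted p, and of the 3 genes that could enter, kek1 and aop were the 2 called higher. The groups did not overlap in 16.1% of those genes with every Sox21a-/- value above and in 17.9% with every one below, while 2 of the 4 genes, kek1 and aop, had every mutant value above. Since the genes were chosen with this contrast known, nothing is read from these counts.

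The order of the 4 levels was the same in every wild type library: Egfr, aop, rho, kek1 from high to low. Neighbours in that order did not overlap over the wild type libraries, at 21.0 to 37.6, 16.5 to 18.2, 5.89 to 12.2 and 1.53 to 2.38 FPKM. In the Sox21a-/- libraries the order differed from library to library. Replicate 1 had the wild type order, with Egfr and aop both at 21.2 FPKM. Replicate 2 had aop, Egfr, kek1, rho, and replicate 3 had aop, rho and kek1 with Egfr at 0. Among the mutant libraries the ranges of kek1 and rho overlapped, as did those of aop and Egfr, while aop stood above rho throughout.

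Ratios within a library do not depend on how the libraries are scaled. The ratio of kek1 to Egfr was 0.349 and 0.562 in Sox21a-/- replicates 1 and 2, against 0.0406, 0.107, 0.0767 and 0.0744 in the wild type libraries. No overlap was left, and the lowest mutant ratio was 3.25-fold above the highest wild type ratio. Between the 2 inhibitors, kek1 to aop was 0.350, 0.339 and 0.364 in the Sox21a-/- libraries, against 0.0865, 0.124, 0.133 and 0.126 in the wild type libraries. The mutant values of this ratio lay close together, although both genes varied between the same libraries. The ratio of aop to Egfr was 0.999 and 1.66 in Sox21a-/- replicates 1 and 2, against 0.469, 0.869, 0.576 and 0.589 in the wild type libraries.

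The inhibitor and protease genes were also set beside relatives. The ratio of kek1 to kek4, another Kekkon family gene, was 2.17, 1.59 and 2.18 in the Sox21a-/- libraries, against 0.273, 0.510, 0.593 and 0.436 in the wild type libraries. Levels of kek4 itself were close in both groups, at 4.77 ± 1.26 FPKM in Sox21a-/- cells (SD, n = 3) and 4.70 ± 0.677 FPKM in wild type cells (SD, n = 4), so that kek1 was the higher of the pair in every mutant library and the lower in every wild type library. The ratio of rho to stet, a second Rhomboid protease gene, was 16.5, 6.76 and 17.4 in the Sox21a-/- libraries, against 2.25, 4.98, 5.10 and 3.14 in the wild type libraries. The stet gene itself was low, at 1.02, 1.31 and 0.768 FPKM in the Sox21a-/- libraries, against 3.12, 2.46, 1.25 and 1.87 FPKM in the wild type libraries. The ratio thus varies with stet as well as with rho. The ratios of rho to stet did not overlap between the groups, unlike rho alone. By contrast, aop over edl, which codes for a binding partner of both Yan and Pointed, overlapped, at 0.596, 1.16 and 0.945 in the Sox21a-/- libraries, against 1.51, 0.630, 0.804 and 0.714 in the wild type libraries.

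**Figure D2:**
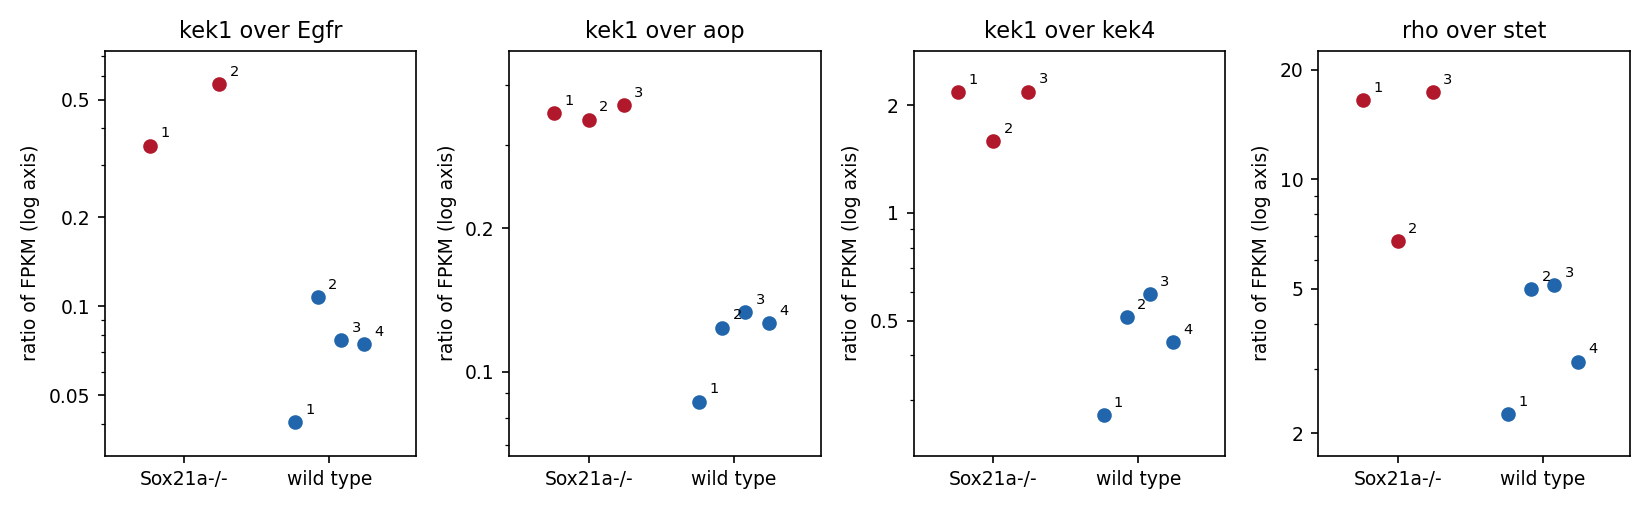
Ratio of FPKM values within each library (log axes, numbered points) for kek1 over Egfr, kek1 over aop, kek1 over kek4 and rho over stet, with Sox21a-/- in red and wild type in blue. Sox21a-/- replicate 3 has no point for kek1 over Egfr, where Egfr is listed at 0. In all 4 panels the points of the 2 groups do not overlap.

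Across libraries, the 4 genes varied together only in part. After centring log2(FPKM + 1) on the group means, Pearson's r over the 7 libraries was 0.73 between kek1 and aop, -0.12 between kek1 and rho and -0.23 between rho and aop. Over the 6 libraries with Egfr above 0 it was -0.73 with kek1, -0.43 with aop and -0.29 with rho. These are descriptions over libraries that share their depth and cell make-up for every gene.

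The genes with the most similar pattern to each were taken from the 2460 genes at 0 in no library, by Pearson's r of log2(FPKM + 1). For kek1 they were CG17739 (r = 0.997), CG32091 (0.99) and CG31705 (0.98) over 7 libraries. CG17739 followed kek1 closely, at 5.11, 9.42 and 10.5 FPKM in the Sox21a-/- libraries, against 0.214, 0.683, 0.819 and 0.431 FPKM in the wild type libraries. For aop they were CG4239 (0.97), CG17739 again (0.96) and Pgant6 (0.95), and for rho sds22 (0.96), Tmem63 (0.93) and zda (0.92). Egfr was most like Nop10 (0.99), Zif (0.98) and CG15529 (0.98) over its 6 libraries above 0. These r values, and those after centring below, are the highest among many genes over 6 or 7 libraries. They are descriptions and carry no test.

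Once the values were centred on the group means, the likeness was to other genes, save for Nop10. It was Nup35, Nop10 and Enoph for Egfr (each 0.997), and msk (0.97), GluProRS (0.97) and IleRS (0.95) for kek1. For rho it was the ribosomal RNA gene 5SrRNA:CR33387 (0.99), one of many near-identical copies and so uncertain, Cpsf100 (0.97) and Srp54k (0.96). For aop it was Hira (0.99), Nup358 (0.98) and lncRNA:CR32218 (0.98).

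Beyond the 4 genes, 60 genes of the pathway and of the families of these genes were listed. By current gene ID, 27 of them were found in the table, and 24 had a mean above the minimum of 1 FPKM. Since current names matched 7339 of the 7608 IDs, a gene not found may be present under an older ID. By adjusted p in limma, 0 of the 24 were higher and 0 lower, beside 1.39% and 1.05% of all 6565 genes tested. An unadjusted P of at most 0.05 was found for 2 of the 24, beside 942 of all 6565 genes. With P and fold together, 1 of 24 was higher and 0 were lower, beside 6.67% and 4.02% of all genes tested. That 1 was spi, the gene of the ligand Spitz. Its values were 172, 99.6 and 148 FPKM in the Sox21a-/- libraries, against 0, 0, 170 and 0 FPKM in the wild type libraries (log2 difference 5.25, limma adjusted p = 0.331). The call was lost when any library other than wild type replicate 3 was left out, and spi could not be fitted with zeros as missing. Without wild type replicate 3 every wild type value of spi was 0, and the limma adjusted p was 0.00104. That p rests on zeros that may be failed estimates, so nothing is read from it. The median log2 difference of the 24 was 0.27, with 14 above 0, beside 0.04 over all 6565 genes tested, with 3382 above 0.

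Of the listed genes, 7 were at 0 in no library. By adjusted p, limma on such genes alone called 0 of the 7 higher and 0 lower, beside 9.23% and 7.97% of all 2460 such genes. An unadjusted P of at most 0.05 was found for 3 of the 7, beside 807 of the 2460. The median log2 difference of the 7 was -0.31, beside -0.01 over the 2460 genes. Every Sox21a-/- value lay below every wild type value in 2 of the 7 and above in 0, beside 17.9% and 16.1% of the 2460. One was msk, whose product, importin Moleskin, carries activated ERK into the nucleus. It was at 62.8 ± 6.66 FPKM in Sox21a-/- cells (SD, n = 3) and 88.2 ± 10.0 FPKM in wild type cells (SD, n = 4). Its log2 difference was -0.48 (limma adjusted p = 0.0755 in this fit and 0.295 in that of all genes tested). The other was Cbl, a ubiquitin ligase gene that acts on the receptor. Cbl had 22.3, 21.8 and 25.9 FPKM in the Sox21a-/- libraries, against 28.8, 26.9, 28.9 and 32.2 FPKM in the wild type libraries. Its log2 difference was -0.31 (limma adjusted p = 0.143 in this fit and 0.460 in that of all genes tested).

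The rest of the 7 overlapped. Levels of stet were 1.03 ± 0.270 FPKM in Sox21a-/- cells and 2.18 ± 0.801 FPKM in wild type cells (log2 difference -0.62). Those of Sos, the exchange factor that activates Ras, were 6.92 ± 2.59 FPKM in Sox21a-/- cells and 10.2 ± 1.76 FPKM in wild type cells (-0.55). The gene edl had 30.4 ± 6.01 FPKM in Sox21a-/- cells and 21.5 ± 7.19 FPKM in wild type cells (0.53). Jra, the Jun gene, had 262 ± 19.7 FPKM in Sox21a-/- cells and 216 ± 30.4 FPKM in wild type cells (0.29), and kek4 is given above. None of these passed the test.

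**Figure D3:**
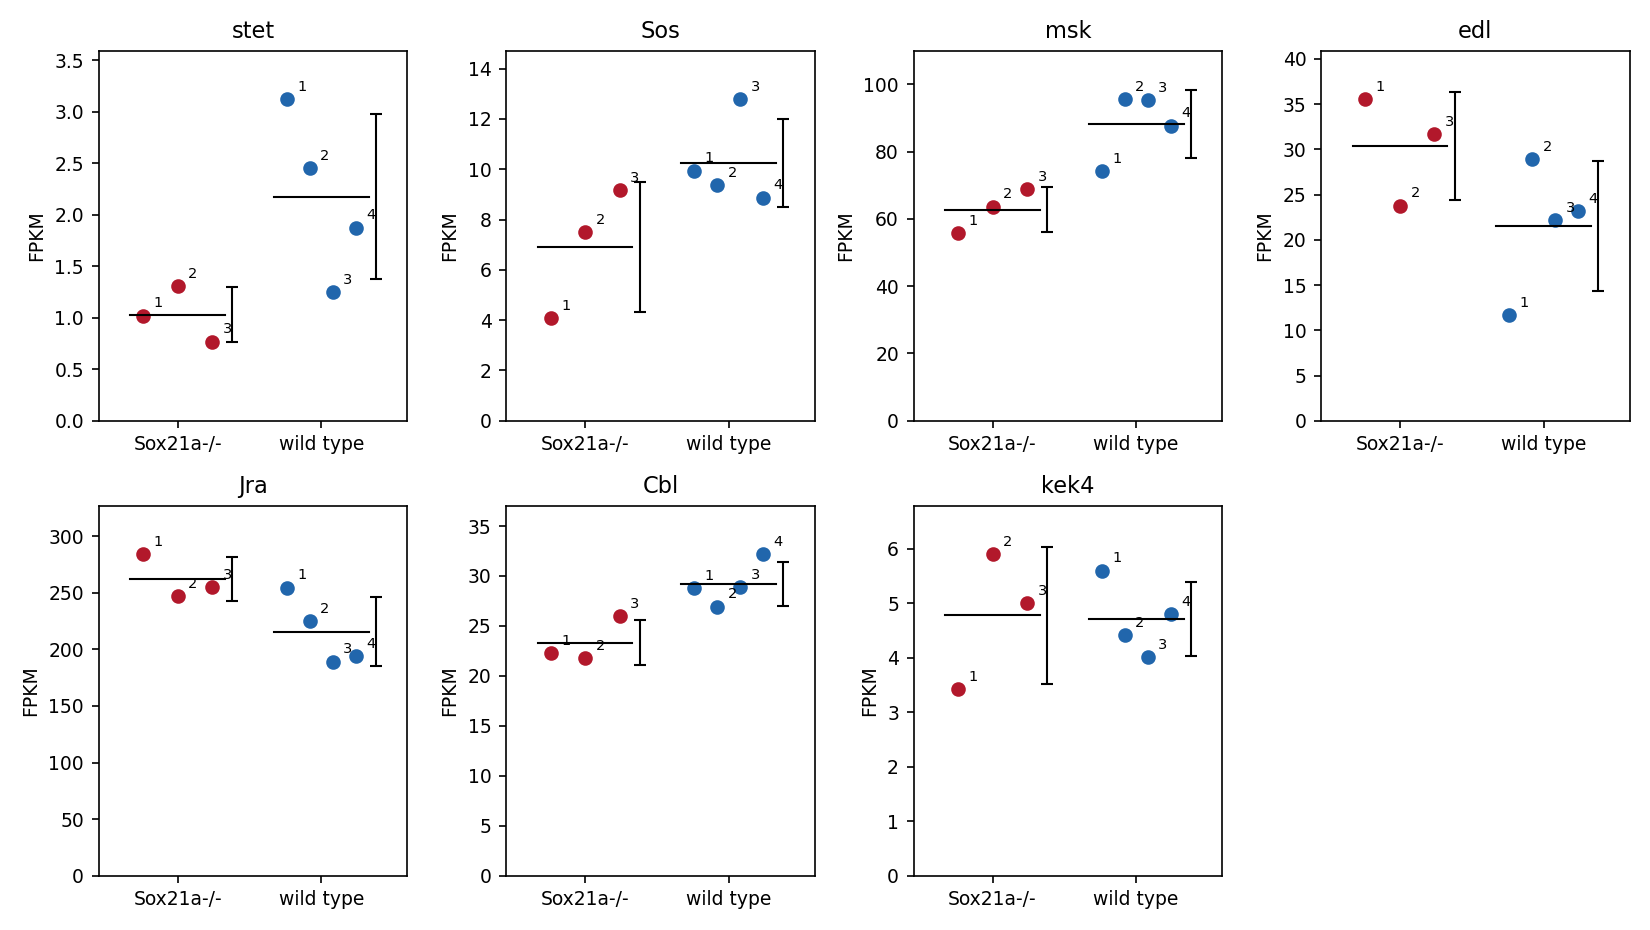
FPKM in each library of the 7 listed pathway and family genes at 0 in no library, with Sox21a-/- in red (3 libraries) and wild type in blue (4 libraries). Lines are means and bars 1 SD. In msk and Cbl every Sox21a-/- point lies below every wild type point, and in the other panels the groups overlap.

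Markers of other cells were read in the same libraries. Of 6 blood cell markers, 5 were in the table and all 5 had a positive log2 difference, with 0 called by adjusted p and 1, NimC1, by P and fold. Of all 6565 genes tested, 3382 had a positive log2 difference, and 1.39% and 6.67% were called higher by these rules. The summed level of the 5 blood cell markers was 144 to 190 FPKM in the Sox21a-/- libraries, against 2.34 to 133 FPKM in the wild type libraries, with crq listed at 0 in wild type replicate 1. Among them NimC1, a phagocytic receptor gene, had 1.98, 15.0 and 2.01 FPKM in the Sox21a-/- libraries, against 0.102, 0.876, 0.371 and 0.185 FPKM in the wild type libraries. The basement membrane collagen gene Col4a1 had 3.67, 33.1 and 5.40 FPKM in the Sox21a-/- libraries, against 2.23, 2.26, 2.73 and 1.83 FPKM in the wild type libraries. In both of these genes every mutant value was above every wild type value, as in kek1 and aop. This held for 16.1% of the 2460 tested genes at 0 in no library. Pxn had 0, 11.6 and 1.87 FPKM in the Sox21a-/- libraries, against 0, 0.153, 0 and 0.114 FPKM in the wild type libraries, and He was listed at 0 in Sox21a-/- replicate 3 and in 3 wild type libraries. The marker crq had 138, 123 and 141 FPKM in the Sox21a-/- libraries, against 0, 130, 111 and 112 FPKM in the wild type libraries. NimC1, Col4a1, Pxn and He were highest in Sox21a-/- replicate 2, whereas crq, kek1 and aop were highest in replicate 3. Without Sox21a-/- replicate 2 the log2 differences of kek1 and aop were 1.72 and 0.50. NimC1 and Col4a1 were still above every wild type value in the mutant libraries that remain. Leaving out replicate 2 therefore cannot separate the 2 genes from these markers. Of the enteroendocrine markers 7 were tested, of the enterocyte markers 10, and of the muscle and tracheal markers 1 each, with 0 called by adjusted p. The enterocyte gene Npc2f was called higher by P and fold. Among the genes at 0 in no library fitted alone, of which 9.23% were called higher, it was also called by adjusted p (limma adjusted p = 0.00450). It had 40.3, 28.7 and 35.4 FPKM in the Sox21a-/- libraries, against 2.03, 2.79, 7.59 and 8.47 FPKM in the wild type libraries. The enterocyte gene nub and the tracheal gene serp also had every mutant value above every wild type value, with no call. The nearest values of nub were 4.56 FPKM in a Sox21a-/- library and 4.40 FPKM in a wild type library. Over the 10 enterocyte markers the median log2 difference was -1.80 with zeros kept, and 4 of the 10 were above 0. The summed levels of these 4 lists overlapped between the groups, and those of the muscle and tracheal markers were at most 5.33 FPKM in any library. Among the progenitor markers, klu, an enteroblast gene, was lower, at 9.14, 11.4 and 16.6 FPKM in the Sox21a-/- libraries, against 43.0, 29.7, 49.0 and 41.0 FPKM in the wild type libraries (limma adjusted p = 0.0388). It was the 1 called of the 5 progenitor markers tested. Of these 5, 4 had a positive log2 difference with zeros kept, and the median was 0.30. The part of these markers in the kek1 and aop values was not tested.

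Over the alternative settings the sign of each difference of the 4 genes did not change. It was 1.62 to 2.16 for kek1, 0.44 to 0.68 for aop and 0.47 to 0.90 for rho. Egfr spanned -4.24 to -0.59 through its single 0.

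**Figure D4:**
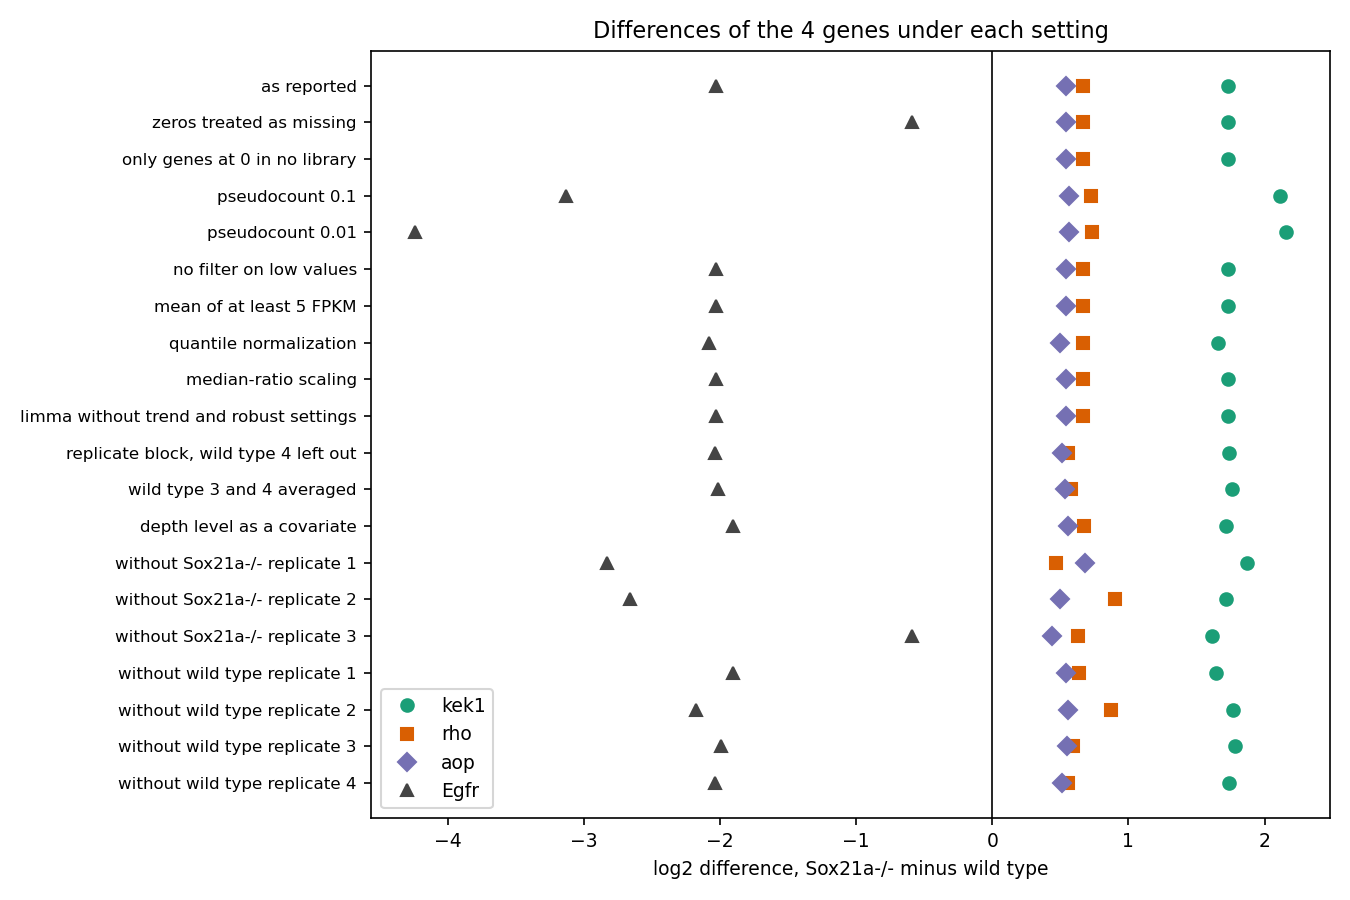
Log2 difference, Sox21a-/- minus wild type, of kek1, rho, aop and Egfr under each setting, from the reported one at the top through other treatments of zeros and low values, scalings and designs to each library left out. Egfr lies at -0.59 only where the 0 of Sox21a-/- replicate 3 is missing or left out, and the other genes stay above 0 in every setting. Egfr has no point where only genes at 0 in no library are kept.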

How the data were processed

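The authors mapped reads with TopHat2 2.0.10 to the BDGP5 genome and computed FPKM with Cufflinks 2.2.1, and only these deposited FPKM values (7608 gene IDs) entered the tests. How the deposited genes were filtered is not given in the sources used here. Names matched 7339 IDs. Exon structure and coordinates are those of BDGP6. Values were taken as log2(FPKM + 1) for the 6565 genes averaging 1 FPKM or more and fitted in R 4.3.3 with limma 3.58.1 (trend and robust, two-sided, Benjamini-Hochberg). The fit was tested on simulated data with normal noise that did not copy the zeros of the real data. Its handling of those zeros was not tested. Depth was read from the lowest FPKM step shared by at least 5 genes, so read numbers are approximate. The alternatives were other pseudocounts (0.1, 0.01), filters, zeros as missing, scalings, a depth covariate, a replicate block and each library left out. The 4 genes, the pathway lists and the named genes (the 4, every listed gene at 0 in no library or called, spi, and the 3 most alike) were chosen with earlier results of these data known. The study's methods describe 3 biological replicates, whereas the labels give 4 wild type libraries and do not say which are separate preparations. Wild type replicates 3 and 4 were the most alike of all pairs (r = 0.99), were kept as separate libraries, and were averaged as an alternative. If they share a source, n = 4 is too high. Sequences of these genes were not analysed here.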

Additional observations from a re-analysis of the deposited data

Results flagged for a closer look

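In the wild type libraries spi stood at 170 FPKM in replicate 3 and at 0 in the other 3, so that the gap of 1 library from the rest took up the whole range (a share of 1.0, beyond Dixon's limit for 4 samples). Of 19 values examined in this way, 1 passed the limit, and chance gives about 0.95.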

How the results depend on the processing

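Genes higher by adjusted p numbered 91, but 344 with zeros treated as missing, 227 with only genes at 0 in no library, 59 with a mean of at least 5 FPKM, 51 with wild type replicates 3 and 4 averaged and 55 with depth as a covariate. Those lower numbered 69, but 269, 196 and, with depth, 43, and 45 to 93 with 1 library left out. With P and fold, higher genes numbered 438, but 225 with only genes at 0 in no library and 257 with a mean of at least 5 FPKM. Lower genes numbered 264, but 149 with zeros as missing and 72 with only genes at 0 in no library, and 169 to 205 with 1 library left out. The pathway gene called higher was 1, and 0 with depth as a covariate, and 0 to 1 with 1 library left out. The count was also 0 with zeros as missing and with only genes at 0 in no library, but spi cannot enter those fits. With the replicate number as a block, leaving out wild type replicate 4, 1 gene was higher and 2 lower by adjusted p, 148 lower by P and fold, and 0 pathway genes higher. The labels give these libraries only a shared number. Deviations of same-numbered libraries correlated at 0.01, 0.37 and 0.20, and those of differently numbered libraries at -0.28 to 0.27. The value of 0.37, for replicate 2, was the highest of all pairs. Whether same-numbered libraries were handled together was not tested. The log2 difference of Egfr was -4.24 with a pseudocount of 0.01, and that of kek1 was 2.11 and 2.16 with 0.1 and 0.01. That of kek4, near 0, was -0.0026 and -0.0032 with those pseudocounts, -0.060 with quantile normalization, -0.025 with wild type replicates 3 and 4 averaged, and -0.14 to 0.18 with 1 library left out. That of Sox21a was -1.72 with zeros as missing, -0.46 with depth and -1.14 to 2.22 with 1 library left out. The causes were not tested. Exact zeros, 25.7% of values, and the lack of counts limit the genes that can be compared.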
